A study of Mus musculus with 10 samples.

Results

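The genes described here are 10 genes of T and natural killer (NK) cell signalling and effector function, taken by name from the 55359 genes of the table: Cd3d, Cd3e, Cd3g, Cd247, Lck, Zap70, Il2rb, Klrb1c, Gzma and Tbx21. All 10 were found, and all 10 reached the lower limit for testing, a mean of 0.1 FPKM over the 10 libraries. RNA was sequenced from lineage-negative (Lin-) bone marrow cells, which are left after antibody depletion of cells carrying the surface antigens of mature blood lineages, with 5 libraries from Dhx9f/f mice, called WT, and 5 from Dhx9f/f;MX1 mice, called cKO. Every mouse carries the floxed Dhx9 allele. The cKO mice also carry Cre under the Mx1 promoter, which answers to interferon and is switched on by injecting poly(I:C), and Mx1-Cre acts outside the blood too. Neither the ages nor whether the WT mice sequenced here also received poly(I:C) is given in the sources used here, and one label field names the cKO genotype a Dhx9 knock down.

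T cells recognise antigen through a receptor whose signal is carried by the CD3 chains and the zeta chain. LCK, a kinase of the Src family, phosphorylates the tyrosine motifs of these chains, and ZAP70 then docks on them and passes the signal on. NK cells lack the rearranged antigen receptor but share many of these parts, depend on interleukin-15 through IL2RB and the transcription factor T-bet (Tbx21), carry NK1.1 (Klrb1c) at the surface and kill with granzymes and perforin. In bone marrow both cell types are a small mature minority, and several of these genes are also transcribed in lymphoid progenitors and innate lymphoid cells.

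Dhx9, the targeted gene, did not follow its label. It was at 68.96, 72.42, 72.18, 69.55 and 65.43 FPKM in WT 1 to 5 and at 130.82, 148.8, 131.25, 156.49 and 131.98 FPKM in cKO 1 to 5. Which part of the transcript these reads cover is not given, so groups are named by their labels throughout, and each direction below is that of the libraries labelled cKO against those labelled WT. FPKM divide the fragments of a gene by its length and by the size of the library. The depth that the steps of the values give was 13837000 to 17191800 fragments in cKO and 15037500 to 18709000 in WT. Xist, transcribed from the inactive X chromosome, was above 1 FPKM in WT 3, 4 and 5 and in no other library.

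The 10 genes split evenly. Lck, Il2rb, Klrb1c, Gzma and Tbx21 were lower in the libraries labelled cKO, by 1.38 to 2.50 on the log2 scale, while none of the 4 CD3 and zeta chain genes and not Zap70 passed the test in either direction in this fit (Cd3e did with quantile normalization). A gene was called when limma on log2(FPKM + 0.1) gave at least a 2-fold difference with its adjusted p below 0.05. Of the members, 5 of 10 were called lower, where 16.8% of the 18742 genes tested were called lower, and 0 of 10 were called higher, where 4.6% were. Tbx21, among the 5, averaged 0.258 FPKM in WT and 0.046 FPKM in cKO and passed the limit for testing through WT. The count of 5 is thus a description. Among the 6487 genes in the same range of mean level as the members, 0.152 to 1.74 FPKM, the shares were 23.8% and 6.95%. The median log2 fold change of the 10 genes was -0.998, and that of all genes tested was -0.11.

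**Figure D1:**
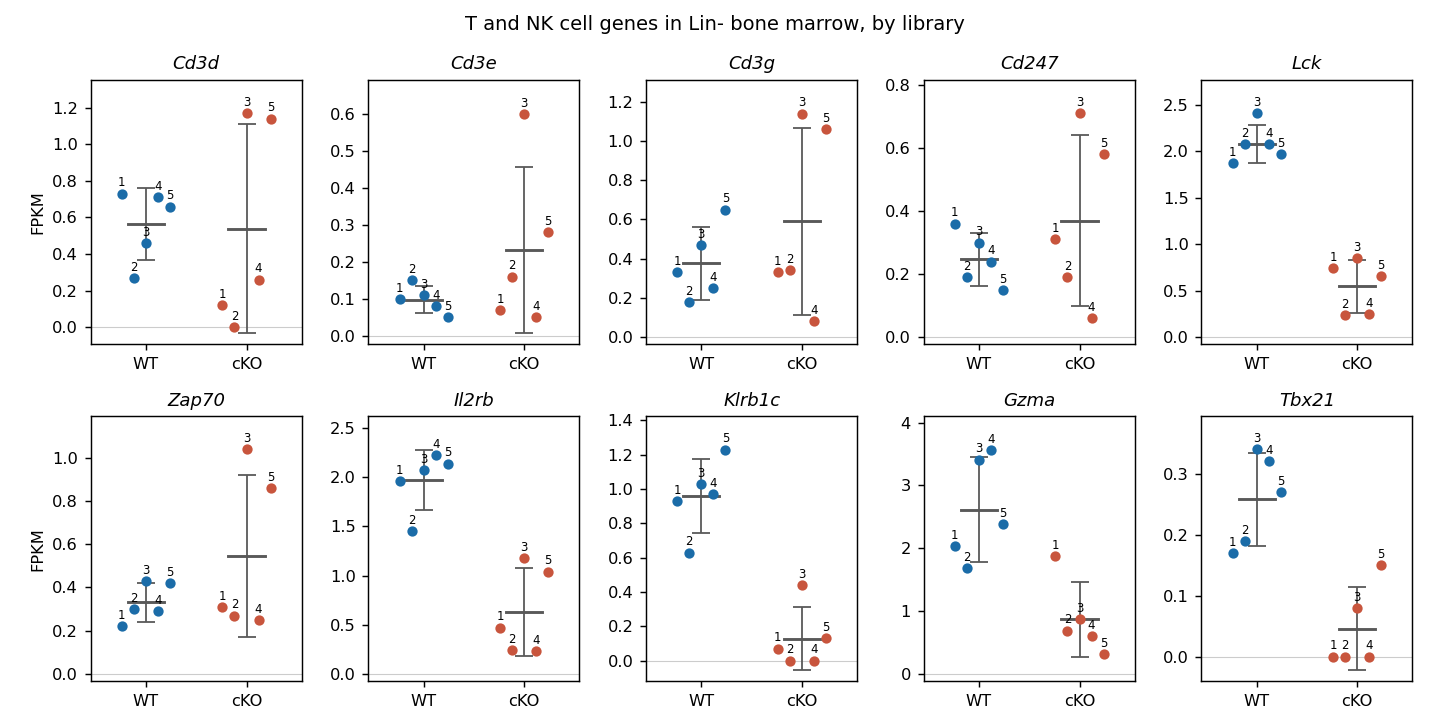
FPKM (vertical axes, linear, one scale per gene) of the 10 genes in each library, numbered by replicate, with the mean and SD of 5 libraries per label. The 5 cKO points lie below the 5 WT points for Lck, Il2rb, Klrb1c and Tbx21 and overlap them for Gzma. For the CD3 chains and Zap70 cKO 3 and 5 lie highest, above WT.

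In WT the genes spanned a wide range of level. Means over 5 libraries ran from 2.61 FPKM for Gzma, 2.08 FPKM for Lck and 1.97 FPKM for Il2rb to 0.098 FPKM for Cd3e. The library ranges of Gzma, Lck and Il2rb overlapped one another and lay above that of Klrb1c (0.63 to 1.23 FPKM). Klrb1c in turn overlapped Cd3d (0.27 to 0.73 FPKM), and below Cd3d each gene overlapped the next down to Cd3e. In cKO the highest mean was 0.868 FPKM for Gzma and the lowest 0.046 FPKM for Tbx21, and every gene overlapped its neighbour in the order.

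Promoter sequence is shown for 4 genes that were lower and, for contrast, for Cd3e, which was not, so that motifs of the ETS and RUNX families, whose lymphoid members are known regulators of T and NK cell genes, can be seen in place. RefSeq promoter windows (250 bases before to 50 after the start site, table of GRCm38.p6) matched 9 of the 10 members with 12 windows, and each window occurred once in GRCm39, whose coordinates are given. Printed are the 250 bases before the start, 5′ to 3′ on the gene's strand, all on the minus strand. Capitals mark the ETS core AGGAAG or its reverse complement CTTCCT, and the RUNX core TGTGGT or its reverse complement ACCACA. Lck has 2 windows, the upstream one at the start of the gene and the downstream one 15269 bases further along it.
Lck upstream, chr4:129467435-129467684: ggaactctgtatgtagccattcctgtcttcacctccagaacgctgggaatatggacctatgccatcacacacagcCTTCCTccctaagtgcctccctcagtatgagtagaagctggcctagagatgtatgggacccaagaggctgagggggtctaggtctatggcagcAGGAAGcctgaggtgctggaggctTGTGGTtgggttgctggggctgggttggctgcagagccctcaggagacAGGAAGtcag
Lck downstream, chr4:129452166-129452415: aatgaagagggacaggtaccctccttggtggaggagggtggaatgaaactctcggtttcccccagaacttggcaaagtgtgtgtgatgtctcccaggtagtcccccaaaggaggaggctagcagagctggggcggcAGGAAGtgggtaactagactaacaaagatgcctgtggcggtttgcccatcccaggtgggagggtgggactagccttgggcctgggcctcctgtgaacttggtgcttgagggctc
Klrb1c, chr6:128765605-128765854: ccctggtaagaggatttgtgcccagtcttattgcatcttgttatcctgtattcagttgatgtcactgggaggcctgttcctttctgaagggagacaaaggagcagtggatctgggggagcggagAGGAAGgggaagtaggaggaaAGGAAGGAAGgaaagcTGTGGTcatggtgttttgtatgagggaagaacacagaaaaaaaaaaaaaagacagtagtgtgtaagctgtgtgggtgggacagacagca
Gzma, chr13:113237516-113237765: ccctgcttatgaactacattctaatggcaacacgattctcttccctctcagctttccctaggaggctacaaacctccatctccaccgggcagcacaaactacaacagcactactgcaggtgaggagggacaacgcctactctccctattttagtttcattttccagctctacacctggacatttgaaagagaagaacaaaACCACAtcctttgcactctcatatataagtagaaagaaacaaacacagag
Tbx21, chr11:97006158-97006407: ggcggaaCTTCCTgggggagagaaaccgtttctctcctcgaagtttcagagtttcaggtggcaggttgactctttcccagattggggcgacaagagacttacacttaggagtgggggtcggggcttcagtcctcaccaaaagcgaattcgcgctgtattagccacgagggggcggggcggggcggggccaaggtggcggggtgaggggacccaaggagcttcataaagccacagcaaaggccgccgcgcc
Cd3e, chr9:44920910-44921159: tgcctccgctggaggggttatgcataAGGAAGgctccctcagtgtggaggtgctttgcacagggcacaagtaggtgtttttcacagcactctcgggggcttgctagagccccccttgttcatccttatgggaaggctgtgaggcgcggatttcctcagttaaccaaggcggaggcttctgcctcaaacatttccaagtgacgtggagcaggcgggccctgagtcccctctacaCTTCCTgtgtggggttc
The ETS letters were in 9 of the 12 member windows and in 35.4% of the 32851 windows of all genes. They stood 3 times in the upstream Lck window and 3 times in the Klrb1c window, where a pair overlap each other, but also 2 times in that of Cd3e. The RUNX letters were in 4 of the 12, in those of upstream Lck, Klrb1c and Gzma and 1 of the 3 of Zap70, against 16.8% of all windows. Both sets of letters occurred in windows of genes that were lower and of genes that were not. Among the other motifs searched on both strands, the T-box letters GGTGTG were in 3 of the 12 windows against 19.0% of all, and the letters CTTTGA of TCF and LEF factors in 3 against 16.0%. The E-box CAGCTG was in 2 against 16.3%, and the letters AGATAA, bound by GATA factors, in 1 against 11.2%. Matches are counts of letters, not of bound sites.

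The genes of the CD3 complex come first, Cd3g, Cd3d and Cd3e on chromosome 9 and Cd247 on chromosome 1. Cd3d (ENSMUSG00000032094; GRCm39 chromosome 9 from 44893083 to 44899173, plus strand), for the delta chain, was at 0.73, 0.27, 0.46, 0.71 and 0.66 FPKM in WT 1 to 5 and at 0.12, 0, 1.17, 0.26 and 1.14 FPKM in cKO 1 to 5. The 5 cKO libraries lay on both sides of WT, 3 of them below its range and 2 above it. The log2 fold change was -0.62 ± 0.67 (SE), with a 95% interval from -2.09 to 0.86 (adjusted p = 0.484, limma).

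Cd3e (ENSMUSG00000032093; chromosome 9 from 44910037 to 44920925, minus strand), for the epsilon chain that pairs with both gamma and delta, was at 0.1, 0.15, 0.11, 0.08 and 0.05 FPKM in WT and at 0.07, 0.16, 0.6, 0.05 and 0.28 FPKM in cKO. Only cKO 3 and cKO 5 stood clearly above WT. WT libraries held about 3 to 10 fragments of it each, the fewest of the 10 genes. Its log2 fold change was 0.53 ± 0.42 (adjusted p = 0.338, limma), though with quantile normalization it was called higher (1.08, adjusted p = 0.0377, limma). The gene passed the level limit through cKO, with means of 0.098 FPKM in WT and 0.232 FPKM in cKO, so that call is a description only.

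Cd3g (ENSMUSG00000002033; chromosome 9 from 44880870 to 44891735, minus strand), for the gamma chain, was at 0.33, 0.18, 0.47, 0.25 and 0.65 FPKM in WT and at 0.33, 0.34, 1.14, 0.08 and 1.06 FPKM in cKO. The groups overlapped, with the same 2 cKO libraries highest and cKO 4 lowest of all 10. On the log2 scale the difference was 0.29 ± 0.53 (adjusted p = 0.689, limma), and without cKO 3 it was -0.01.

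Cd247 (ENSMUSG00000005763; chromosome 1 from 165616250 to 165704846, plus strand), for the zeta chain, which carries most of the receptor's tyrosine motifs, was at 0.36, 0.19, 0.3, 0.24 and 0.15 FPKM in WT and at 0.31, 0.19, 0.71, 0.06 and 0.58 FPKM in cKO. Again cKO 3 and 5 were highest and cKO 4 lowest, and the groups overlapped. Its difference was 0.24 ± 0.44 on the log2 scale (adjusted p = 0.683, limma) and -0.01 without cKO 3. The gene overlaps Pou2f1, transcribed from the opposite strand at 3.33 to 6.69 FPKM, and whether the counting used strand is not given in the sources used here.

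Summed over the 4 chains, the level was 1.52, 0.79, 1.34, 1.28 and 1.51 FPKM in WT 1 to 5 and 0.83, 0.69, 3.62, 0.45 and 3.06 FPKM in cKO 1 to 5. The cKO libraries thus fell into a pair above and a pair below every WT library, with cKO 1 inside the WT range, and the wide intervals of these 4 genes span differences of more than 2-fold in at least one direction.

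Of the 2 kinases next to the receptor, Lck was called lower and Zap70 was not. Lck (ENSMUSG00000000409; chromosome 4 from 129442137 to 129467434, minus strand) was at 1.87, 2.08, 2.41, 2.08 and 1.97 FPKM in WT and at 0.74, 0.24, 0.85, 0.25 and 0.66 FPKM in cKO. The highest cKO library was below the lowest WT library, and the WT libraries lay close together. Mean levels were 2.08 ± 0.20 FPKM in WT and 0.548 ± 0.285 FPKM in cKO (SD, 5 libraries each), and the difference was -1.88 ± 0.32 on the log2 scale (SE; adjusted p = 0.00077, limma). In fragments this was about 376 in WT and 92 in cKO, summed over 5 libraries each.

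Zap70 (ENSMUSG00000026117; chromosome 1 from 36800837 to 36821905, plus strand) was at 0.22, 0.3, 0.43, 0.29 and 0.42 FPKM in WT and at 0.31, 0.27, 1.04, 0.25 and 0.86 FPKM in cKO. It followed the CD3 chains in having cKO 3 and 5 above WT and the other 3 inside its range. It differed by 0.42 ± 0.38 on the log2 scale (adjusted p = 0.408, limma). The ratio of Lck to Zap70 was 4.69 to 8.5 in WT and 0.767 to 2.39 in cKO, without overlap. That ratio was chosen after the values were seen and was not tested.

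**Figure D2:**
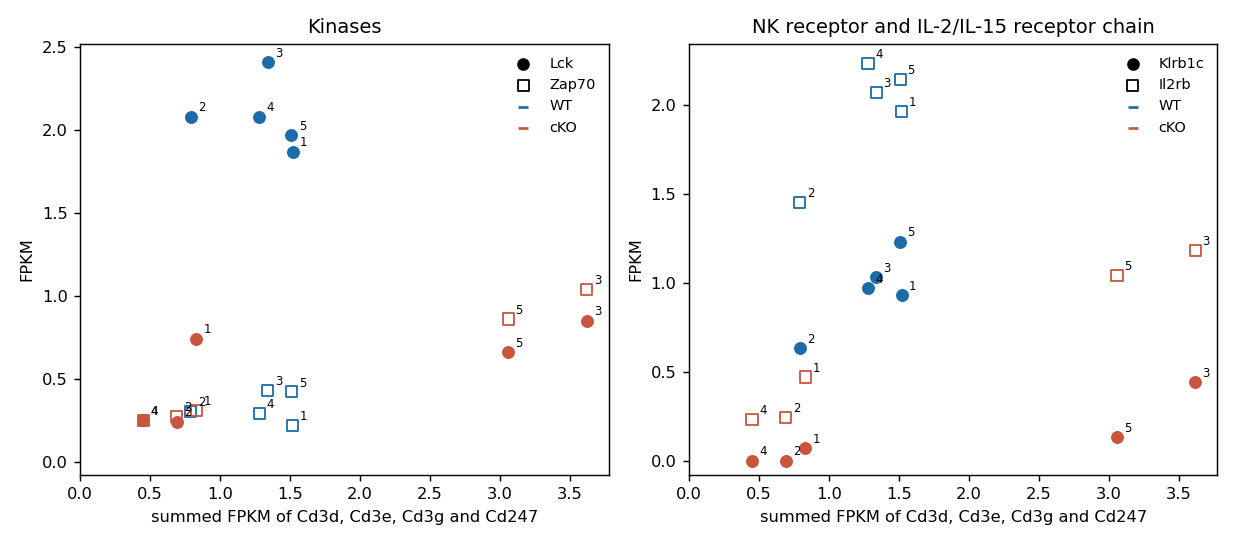
FPKM of Lck and Zap70 (left) and of Klrb1c and Il2rb (right) against the summed FPKM of the 4 CD3 and zeta chain genes, one point per library numbered by replicate, WT in blue and cKO in red. cKO 3 and 5 hold the highest CD3 sums, 3.62 and 3.06 FPKM, and Zap70 is highest in them too, while their Lck, Klrb1c and Il2rb stay below all 5 WT libraries.

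Il2rb, Klrb1c, Gzma and Tbx21, the genes more typical of NK cells in the list, were all lower. Il2rb (ENSMUSG00000068227; chromosome 15 from 78363456 to 78395566, minus strand), the chain that interleukin-2 and interleukin-15 receptors share, was at 1.96, 1.45, 2.07, 2.23 and 2.14 FPKM in WT and at 0.47, 0.24, 1.18, 0.23 and 1.04 FPKM in cKO. The groups did not overlap, and cKO 3 and 5 came nearest to WT. Between the labels it differed by -1.72 ± 0.40 on the log2 scale (SE; adjusted p = 0.00474, limma). Il2rg, which encodes the common gamma chain of the same receptors, was at 8.56 to 12.3 FPKM in WT and 7.6 to 13.31 FPKM in cKO and was not called (adjusted p = 0.499, limma).

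Klrb1c (ENSMUSG00000030325; chromosome 6 from 128755448 to 128766178, minus strand), for the NK1.1 antigen, was at 0.93, 0.63, 1.03, 0.97 and 1.23 FPKM in WT and at 0.07, 0, 0.44, 0 and 0.13 FPKM in cKO. All 5 cKO libraries were below WT, and cKO 2 and 4 are listed at 0. The log2 fold change of -2.50 ± 0.45 (adjusted p = 0.00114, limma) is the largest of the 10 genes, but its size depends on the pseudocount: it was -4.11 with 0.01 and -0.80 with 1. Reads may be shared with its near copies Klrb1a, Klrb1b and Klrb1f, so its own level is uncertain.

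Gzma (ENSMUSG00000023132; chromosome 13 from 113230355 to 113237524, minus strand), for granzyme A, a protease of cytotoxic granules, was at 2.03, 1.68, 3.41, 3.56 and 2.38 FPKM in WT and at 1.87, 0.69, 0.87, 0.6 and 0.31 FPKM in cKO. Here the order of the cKO libraries was different, with cKO 1 highest, inside the WT range, and cKO 5 lowest. The log2 fold change was -1.62 ± 0.38 (adjusted p = 0.00539, limma), the only call of the 5 with overlapping groups.

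Tbx21 (ENSMUSG00000001444; chromosome 11 from 96988897 to 97006158, minus strand), for T-bet, was at 0.17, 0.19, 0.34, 0.32 and 0.27 FPKM in WT and is listed at 0 in cKO 1, 2 and 4, with 0.08 and 0.15 FPKM in cKO 3 and 5. The groups did not overlap, on about 53 fragments in all of WT and 9 in all of cKO. The log2 fold change was -1.38 ± 0.34 (adjusted p = 0.00693, limma), and it ranged from -3.26 to -0.27 between pseudocounts of 0.01 and 1. The gene passed the level limit through WT, with means of 0.258 FPKM in WT and 0.046 FPKM in cKO, so that call is a description only.

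Counting all 10 genes, 4 had all cKO libraries below all WT libraries, where 21.6% of all genes tested did. Tbx21, among these 4 and among the 5 calls, passed the level limit through WT, so both counts are descriptions. Each of the 5 calls held when any 1 library was left out and under the 3 other scalings tried, while with a pseudocount of 1 the differences other than that of Lck were under 2-fold. They held less well against the split by Xist. With a covariate for Xist above 1 FPKM, Lck and Klrb1c were called, and Il2rb (adjusted p = 0.0571), Gzma (0.0892) and Tbx21 (0.0957, all limma) were not. With WT 3, 4 and 5 left out altogether, Lck alone was called (adjusted p = 0.0386, limma), and Klrb1c was at an adjusted p of 0.0522. The 2 remaining WT libraries were still above all 5 cKO libraries for Lck, Il2rb, Klrb1c and Tbx21.

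**Figure D3:**
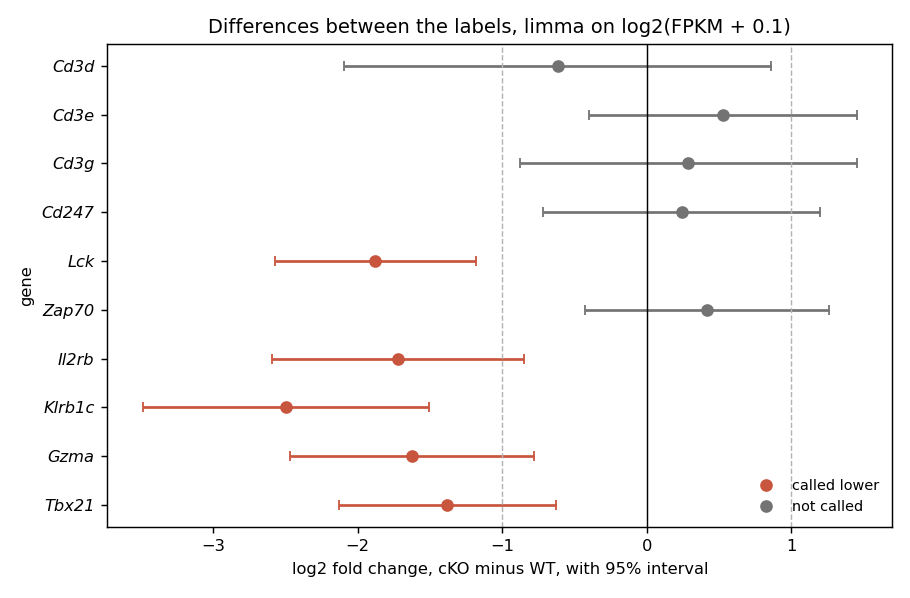
Log2 fold change of the libraries labelled cKO against WT for each of the 10 genes, with its 95% interval (limma, log2(FPKM + 0.1), 5 libraries per label). Dashed lines mark a 2-fold change, and the 5 genes called lower lie between -2.50 and -1.38 with intervals below 0.

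Within the cKO label, the genes rose and fell together from library to library. cKO 3 was the highest cKO library for 8 of the 10 genes and among the top 2 for all 10, and cKO 5 was among the top 2 for 8. Of the 45 pairs of genes, 38 had a positive correlation over the 5 cKO libraries, with a median Pearson r of 0.836. In WT it was 31 of 45 with a median of 0.307. Gzma was the exception, with cKO 1 at its top. These correlations rest on 5 libraries each and few fragments, and are given as a description. Over all 10 libraries, the 5 further genes whose deviations from their label means were most like the mean of the members, out of 12350 genes averaging 1 FPKM or more, were Ly6d (r = 0.957), a surface protein of lymphoid progenitors and plasmacytoid dendritic cells, Gimap4 (0.955), a GTPase of lymphocytes, Cdc45 (0.951), a replication factor, Ifi27l2a (0.949), an interferon-induced gene, and Tlr7 (0.946), an endosomal RNA sensor.

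The antigen receptor itself was examined through its constant regions. Trdc, for the delta chain of gamma delta T cells, was at 0.33, 0.11, 0.57, 0.4 and 0.4 FPKM in WT and at 0.37, 0.77, 2.69, 0.42 and 1.79 FPKM in cKO, highest in the same cKO 3 and 5, and was not called (log2 fold change 1.24 ± 0.53, adjusted p = 0.0773, limma). It was called higher in 2 of the 10 fits that each left out 1 library, those without cKO 1 (adjusted p = 0.0333) and cKO 4 (0.0489, limma). Counting every alternative setting, including these fits, Trdc was called higher in 4 and not called in 17. Trbc1, for one beta chain constant region, was at 2.57 to 3.82 FPKM in WT and 0 to 1.51 in cKO and was called lower (-2.35 ± 0.64, adjusted p = 0.0114, limma). Its near copy Trbc2 (-0.63 ± 0.57) and the alpha chain gene Trac (-0.52 ± 0.60) were not called, and reads may be split between the 2 beta genes. Trbc1 is also read from an unrearranged locus, so its RNA alone does not mark a mature T cell. The 4 constant regions summed to 3.89 to 7.62 FPKM in WT and 0.88 to 6.55 FPKM in cKO.

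Cd5, whose product is among the antigens such depletion kits target on T cells, was at 0.05 to 0.13 FPKM in WT and 0 to 0.06 FPKM in cKO, under the limit for testing. Ptprc, listed with it, was at 10.01 to 17.69 FPKM in WT and 2.82 to 5.42 FPKM in cKO. Itgam, also listed, was at 2.62 to 3.94 FPKM in WT and 0.05 to 1.84 FPKM in cKO. Both were called lower (adjusted p = 0.000173 and 0.00772, limma), and Ly6g was not called. Of the 10 NK defining markers, which include Klrb1c and Tbx21, 8 were called lower, where 16.8% of all genes tested were. Ncr1, Klre1, Eomes and Tbx21 of these averaged under 0.1 FPKM in cKO and passed the level limit through WT, so the count is a description and supports nothing. Their summed level was 81.4 to 104 FPKM in WT and 25.1, 9.64, 18.3, 7.31 and 28.1 FPKM in cKO 1 to 5, most of it Nkg7, a granule protein that myeloid progenitors also express. Ncr1, for the NK receptor NKp46, was at 0.78 to 1.81 FPKM in WT and at 0.05, 0, 0.28, 0 and 0.08 FPKM in cKO. Besides Ncr1, Klrb1c and Tbx21, the markers Klrd1, Klrk1 and Eomes were listed at 0 in some cKO library. Perforin (Prf1, 0.13 to 0.23 FPKM in WT and 0.23 to 0.39 in cKO) and granzyme B (Gzmb, 1.17 to 2.63 and 0.56 to 1.78) were the 2 that were not called.

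Other cell types moved with the same labels, and their counts are to be set beside the 16.8% of all genes tested that were called lower and the 4.6% called higher. In bulk RNA, fewer cells of a type and less RNA per cell cannot be told apart, and the part of these markers in the results above was not tested. Of 8 monocyte markers 7 were called lower, with a summed level of 870 to 1550 FPKM in WT and 63.5, 16.5, 158, 7.03 and 254 FPKM in cKO 1 to 5, so that cKO 3 and 5 were again highest and none was at 0. Of the other lists, the counts called lower were 7 of 8 basophil and mast cell markers, 8 of 8 megakaryocyte, 6 of 8 stem and progenitor, 5 of 7 plasmacytoid dendritic cell, 4 of 9 neutrophil, 3 of 6 B-lineage and 2 of 7 ILC2 markers, with none higher. Kit, the receptor that marks blood progenitors, was at 36.56 to 54.36 FPKM in WT and 18.73 to 31.11 FPKM in cKO. Of 12 erythroid markers 7 were called higher, with sums of 536 to 1550 FPKM in WT and 2130 to 3340 FPKM in cKO.

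**Figure D4:**
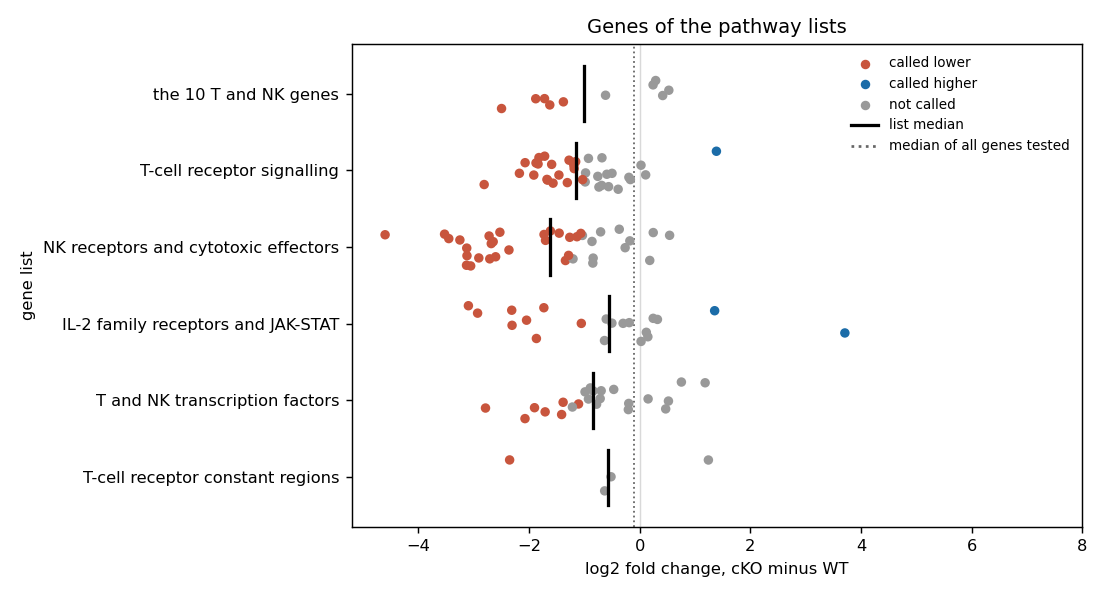
Log2 fold change (cKO minus WT) of each gene tested in the 4 pathway lists, the constant regions and the 10 genes, with list medians as bars and the median of all genes tested, -0.11, as a dotted line. Medians run from -1.61 for NK receptors and cytotoxic effectors to -0.55 for IL-2 family receptors and JAK-STAT.

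Around the members, the T-cell receptor signalling list (40 genes, 35 tested) had 19 genes called lower and 1 higher, and its median was -1.16. Most of its abundant genes serve other blood cells as well. Vav1, a signalling protein of blood cells, stood at 43.5 ± 6.5 FPKM in WT and 19.1 ± 2.7 FPKM in cKO (SD, 5 libraries each) and was called lower (-1.18 ± 0.13, adjusted p = 9.56e-05, limma). The largest falls were in Sla, an adaptor that dampens receptor signalling (-2.81 ± 0.43), Grap2, the adaptor GADS (-2.17 ± 0.25), and Nfatc2, a calcium-dependent transcription factor (-2.07 ± 0.38; adjusted p of 0.00127 or less for the 3, limma). Csk, the kinase that holds LCK inactive, was at 44.64 to 52.61 FPKM in WT and 39.02 to 54.4 in cKO, and its log2 fold change of 0.02 had a 95% interval from -0.18 to 0.23. Ptpn6 (-0.98) and Cbl (-0.93), for the phosphatase SHP-1 and a ubiquitin ligase, were below WT in all 5 cKO libraries but changed by less than 2-fold. The 1 gene called higher, named after its value was seen, was Prkcq, for protein kinase C theta, at 2.13 to 5.27 FPKM in WT and 5.16 to 16.98 in cKO.

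The NK receptor and cytotoxic effector list (41 genes, 37 tested) had 25 genes called lower and 0 higher, and its median was -1.61. Of the genes called, Xcl1, S1pr5, Klrb1a, Klri2, Klre1 and Ncr1 averaged under 0.1 FPKM in cKO and passed the level limit through WT. The counts of this list are thus a description and support nothing. Tyrobp and Fcer1g, adaptors that pass on the signals of NK receptors and also of myeloid ones, were at 113.56 to 207.81 and 80.59 to 128.16 FPKM in WT and at 3.41 to 39.93 and 2.76 to 24.15 FPKM in cKO. They fell by 3.53 and 3.45 on the log2 scale (SE 0.58 and 0.55), and at these levels far above those of Klrb1c or Ncr1. Differences of similar or larger size were in the less abundant Klrb1f, a relative of Klrb1c (-4.60 ± 0.56), Klrd1, for CD94 (-3.25 ± 0.63), and Ccl4, a chemokine (-3.13 ± 0.63; adjusted p of 0.00213 or less for the 3, limma). Srgn, for the granule proteoglycan serglycin, was at 254 ± 35 FPKM in WT and 142 ± 21 FPKM in cKO (SD, 5 libraries each), a change of less than 2-fold (-0.84 ± 0.12).

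Il2rb signals through JAK1, JAK3 and STAT5. The list of IL-2 family receptors and JAK-STAT (22 genes, 20 tested) is wider. It also holds Stat4, Il12rb1, Il12rb2, Il18r1, Il18rap and Bcl2, and all its genes are called IL-2 family genes below. The list was split, with 8 genes lower and 2 higher and a median of -0.55. Stat4, Il18r1 and Il18rap were among those called lower. Jak3, named after its value was seen, was at 6.35 to 9.28 FPKM in WT and 1.05 to 3.7 FPKM in cKO and was called lower (-1.73 ± 0.30, adjusted p = 0.000842, limma). The more abundant Stat5a was at 16.72 to 17.71 FPKM in WT and 15.81 to 19.85 in cKO, with an interval for the log2 fold change from -0.13 to 0.18, and Stat5b (-0.19 ± 0.10) and Jak1 (0.32 ± 0.10) were not called either. Cish, a STAT5 target that feeds back on cytokine receptors, was at 0.46 to 0.91 FPKM in WT and at 3.86, 18.48, 11.46, 12.42 and 7.7 FPKM in cKO 1 to 5 and was called higher (3.71 ± 0.36, adjusted p = 6.85e-05, limma). Socs1, a feedback inhibitor of JAK kinases named after its value was seen, was the other (1.36 ± 0.47, adjusted p = 0.0371, limma), and that call was lost in 7 of the 10 fits that each left out 1 library. Which cells the RNA of Cish and Socs1 came from was not tested. Il15, for the cytokine that IL2RB binds, was at 4.03 to 7.17 FPKM in WT and 0.3 to 1.5 in cKO (-3.10 ± 0.37), and Il21r fell by 2.93 ± 0.41 on the same scale.

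Beside Tbx21, 7 of 23 tested transcription factors of T and NK cells were called lower and 0 higher, and the list's median was -0.84. Nfil3, needed for NK cell development, was at 5.68 to 9.24 FPKM in WT and 0.4 to 1.67 in cKO (-2.79 ± 0.37). Ets1 (-2.07 ± 0.37), Tcf7 (-1.90 ± 0.37) and Runx1 (-1.10 ± 0.11) also fell (adjusted p of 0.0018 or less for the 4, limma). Tcf3 (0.52 ± 0.09) and Tcf12 (0.47 ± 0.07), which encode E proteins, were above WT in all 5 cKO libraries but by less than 2-fold, and Ikzf1 (-0.20 ± 0.07) was not called. Eomes, called lower here, and Cd28, in the receptor signalling list, also averaged under 0.1 FPKM in cKO and passed the level limit through WT. The 4 pathway lists were drawn up with results of these libraries known, so these counts are descriptions to set beside 16.8% and 4.6% of all genes.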

How the data were processed

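RNA-seq of 10 Lin- bone marrow libraries, 5 per genotype label, was analysed from the gene table. The authors trimmed and filtered 150-base read pairs, aligned them to GRCm39 and deposited a table of FPKM with 2 decimals. The submitters' processing notes name cutadapt 1.9.1, HISAT2 2.0.1 and HTSeq 0.6.1. The annotation, gene lengths and strand setting are not given in the sources used here. FPKM are not counts, so the authors' DESeq2 test was not repeated. Instead limma 3.58.1 (lmFit, eBayes with trend) in R 4.3.3 was run on log2(FPKM + 0.1), two-sided, on the 18742 genes averaging 0.1 FPKM or more, with Benjamini-Hochberg adjustment across them. SE and intervals are limma's. Gene positions are from GENCODE M39.

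Depth was read from single-transcript genes, whose FPKM are multiples of 1 fragment. It was chosen to bring their low values nearest to whole numbers, and 95.9% to 96.5% then came out whole within a set tolerance. That share follows in part from the choice and is no separate check of the depth. Fragment numbers of named genes rest on annotated lengths and are approximate, and 3 fragments were taken as a floor. The steps were tested on simulated data. Nothing says that libraries came from separate litters or days. The p-values set the difference between labels against the spread among these libraries within a label, and against nothing wider.

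The members and all lists were chosen with earlier results of these data known. Named genes are the members, Dhx9, and per list up to 4 by level and up to 3 by size of change, the 5 likest genes and depletion antigens. Alternatives were another pseudocount, level limit, scaling or trend, a replicate block, an Xist covariate, adjusted p alone and each library left out.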

Additional observations from a re-analysis of the deposited data

Results flagged for a closer look

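Of 94 groups of 5 libraries examined among the members and listed genes, 4 held a library set apart from its group by Dixon's criterion, where chance gives about 4.7. Ccl4, the chemokine named above, was at 1.31 FPKM in cKO 1 and at 0 to 0.2 FPKM in the other cKO libraries, the same library in which Gzma was highest. Stat5b was at 38.3 FPKM in cKO 1 and at 26.59 to 29.12 FPKM in the others. Cd5 was at 0.06 FPKM in cKO 5, about 5 fragments, and at 0 to 0.01 FPKM in the others. Ly6g, a neutrophil antigen targeted by lineage depletion, was at 1.32 FPKM in cKO 3 and at 0 to 0.31 FPKM in the others. None of the 10 members had such a library in either label.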

How the results depend on the processing

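The 5 calls among the 10 genes were kept with a pseudocount of 0.01, without the level limit, under 3 other scalings, without the trend and in each of the 10 fits without 1 library. A pseudocount of 1 left 1 member called lower, 1486 and 356 of all genes lower and higher, 9 T-cell receptor signalling genes and 4 transcription factors lower, and 1 IL-2 family gene higher. It also left 17 NK genes lower, against 25 in the main fit. A mean of at least 1 FPKM left 3 members tested, all 3 called lower, with 1827 and 462 of all genes, 15 NK genes lower and 1 IL-2 family gene higher, since fewer genes were tested. Those 3, Gzma, Lck and Il2rb, passed this higher limit through WT. They averaged 2.61, 2.08 and 1.97 FPKM in WT and 0.868, 0.548 and 0.632 FPKM in cKO. Their calls at this limit are thus a description only. The Xist covariate left 2 members and 19 NK genes lower and 1 IL-2 family gene higher. Without WT 3, 4 and 5, an alternative added after the data were seen, 1 member of 9 tested was lower and 536 of all genes higher, with 5 and 1 IL-2 family genes lower and higher and 0 T-cell receptor signalling genes higher. The NK genes called lower then numbered 19. Quantile normalization, which moved the median of all genes from -0.11 to 0.10, raised the calls higher to 1581, or 41.3% of calls against 21.5%, with Cd3e, 1 NK gene and 2 transcription factors called higher. Without the level limit 1 IL-2 family gene was higher. Adjusted p alone called 5300 genes lower and 3138 higher, with 12 and 2 transcription factors. Leaving out 1 library gave 1 to 2 IL-2 family genes and 0 to 1 transcription factors called higher. The members' median ran from -1.54 to -0.18 between the smaller and the larger pseudocount and from -1.25 to -0.69 when 1 library was left out. For changes not explained by fewer genes or libraries tested, the cause was not tested.

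Same-numbered libraries of the 2 labels deviated together with correlations of -0.08 to 0.19, so the numbers do not pair them. With the replicate block, 5 members were called lower and 0 higher, and 1 IL-2 family gene higher in place of 2. Trdc was then called higher (adjusted p = 0.0497, limma).

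Cd3e and Tbx21 rest on a few fragments per library, and no detection limit was measured at such levels.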
